A study of Nannochloropsis oceanica strain IMET1 with 6 samples.

Results

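Closely spaced divergent gene pairs were examined in the alga Nannochloropsis oceanica strain IMET1, in an insertional mutant and its wild type. A divergent pair consists of adjacent genes transcribed away from each other, so that the 5′ ends of the genes face one another across a short gap. Genes were sorted by chromosome and start, and an adjacent pair was kept where the first gene lay on the minus strand, the second on the plus strand, and their listed ends were separated by fewer than 200 bases without overlapping. This gave 889 pairs, or 1778 genes, out of 9522 adjacent pairs and 9552 genes on 30 chromosomes. The rule uses position and strand only. In 2 of the 889 pairs a gene shared its start position with another gene.

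The mutant strain was HLM23, which carries an insertion in NO06G03670, known as an APETALA2-like transcription factor gene, and has the genotype label NO06G03670-. It was set against the wild type (WT). Messenger RNA was sequenced in 3 libraries of each strain. Both strains were grown alike, in 25 ml, from a starting OD750 of 0.1, at a temperature of 25 °C, with 16 h of light daily at 600 μmol photons. Cells were taken on day 3, when 1 h of light remained. HLM23 is a single insertion strain. Whether replicates came from separate cultures is not stated, and the p-values therefore reflect library-to-library spread that could be technical. The libraries held 15331673 to 18711316 gene reads as implied by the deposited values. Transcripts of NO06G03670 were reduced but present, with 1073, 982 and 777 normalised reads in HLM23, against 2164, 1664 and 1682 in the WT (log2 fold change -0.96 ± 0.18 SE, adjusted p = 0.0026 in limma). Where the insertion lies relative to these reads is not stated, and the gene is in none of the close divergent pairs. Of the 9 comparisons of an HLM23 with a WT library, the replicate 2 libraries were the most alike, with a root mean square log2 difference of 0.627 over all tested genes, while the other 8 lay between 0.780 and 1.04. The main counts are therefore also given with both of these libraries left out.

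In many eukaryotes, neighbouring genes that diverge from a short intergenic stretch can use a common open chromatin region, from which transcription starts in both directions. Some such pairs produce both transcripts at like levels and respond to the same signals, whereas in others each gene follows its own core promoter. Nannochloropsis has a compact nuclear genome, and in this genus intergenic stretches of divergent pairs have been used as bidirectional promoters to drive a pair of transgenes. The gaps measured here lie between listed gene ends, not between mapped transcription starts. The deposited IDs come without descriptions. Of these, 0 of 9552 matched the 160 organelle genes of the reference table, so no function is given for any gene. Only the genes of the leading higher and the leading lower pair are given by ID, and all others by chromosome and position as deposited; no source used here names the genome build.

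The pairs were spread over all 30 chromosomes, with 3 to 61 pairs on each. Their gaps had a median of 75 bases, and small gaps were frequent: 217 pairs were 0 to 19 bases apart, and in 91 pairs the genes abutted with no base between them. The genes of these pairs had a median length of 1962 bases, against 1894 bases in the 7774 other genes. In 24.4% of them the listed length equalled the span on the chromosome, against 29.5% of the other genes. Their median level was 321 normalised reads per kb in HLM23 and 335 in the WT, whereas the other genes had medians of 263 in HLM23 and 275 in the WT. Few were near silent, with 2.87% under a mean of 10 normalised reads, against 6.16% of the other genes. The members took 20.8%, 20.6% and 20.5% of the normalised reads in the HLM23 libraries, against 20.4%, 20.8% and 19.9% in the WT libraries, and the strains overlapped. They averaged 20.6% ± 0.164 in HLM23 and 20.4% ± 0.421 in the WT (mean ± SD, n = 3, exact 2-sided permutation p = 0.4). The smallest p that 3 against 3 libraries allow is 0.1. These features were described without a test between the gene groups. No gene sequence was used here, so the gaps are given by length only. A total of 89 member genes overlapped the adjacent gene on their other side, and strand handling in the counting is not stated, so reads of those genes may be shared.

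Within pairs, the expression levels were uneven in most cases. Levels between the genes of a pair were compared per length, as normalised reads per kb of listed gene length. This was done in the 844 pairs in which both genes had a mean of at least 10 normalised reads, and the other 45 pairs were left out of these ratios. Over all 6 libraries, the median pair had an absolute log2 ratio of 1.60 between its higher and lower gene. In HLM23 the median pair differed 3.11-fold, with 277 pairs (32.8%) within 2-fold and 167 pairs (19.8%) at least 10-fold apart. In the WT the median pair differed 3.18-fold, with 255 pairs (30.2%) within 2-fold and 180 pairs (21.3%) at least 10-fold apart. The per-library median of the absolute log2 ratio was 1.57, 1.62 and 1.75 in HLM23, against 1.66, 1.66 and 1.74 in the WT. The difference of -0.041 was smaller than the spread between libraries (exact 2-sided permutation p = 0.5). The minus gene was the higher one in 430 pairs and the plus gene in 414, and the longer gene was the higher one per length in 330.

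**Figure D1:**
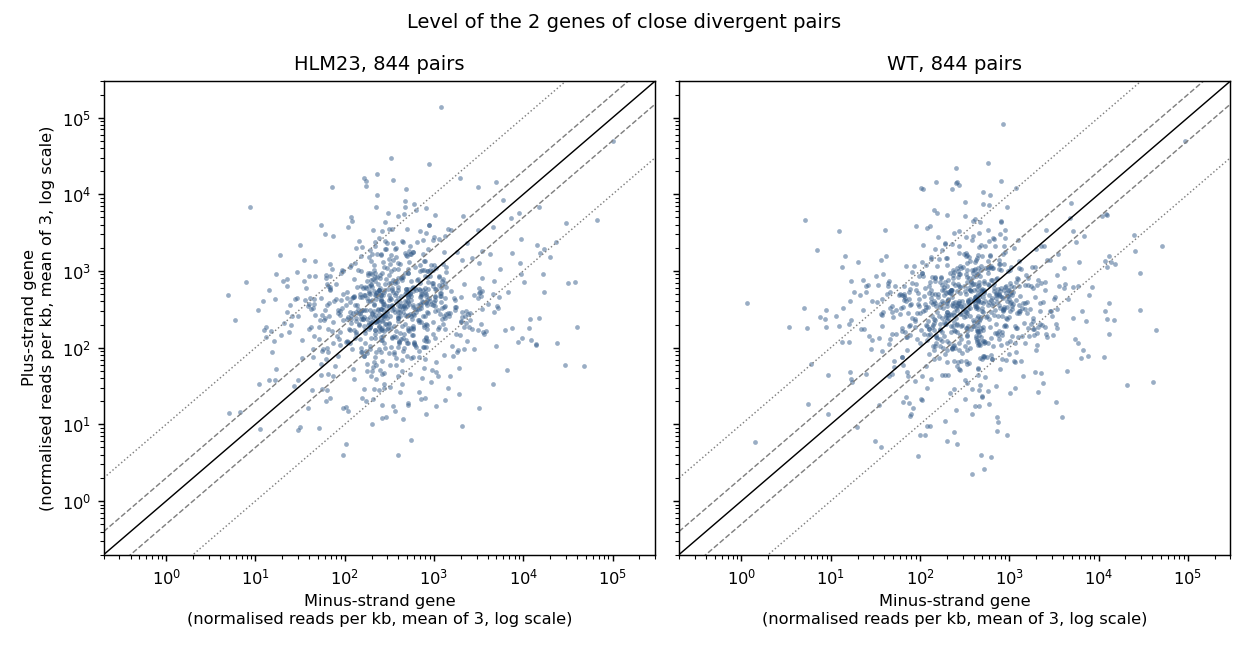
Level of the plus-strand gene against the minus-strand gene of 844 close divergent pairs, in normalised reads per kb (mean of 3 libraries, log axes), for HLM23 and the WT. The solid line marks equal levels, dashed lines a 2-fold and dotted lines a 10-fold difference; 32.8% of pairs in HLM23 and 30.2% in the WT lie between the dashed lines.

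Levels within a pair were only weakly related. Across the 844 pairs, the Spearman correlation of the levels of the minus and plus genes was 0.14 in HLM23 and 0.13 in the WT, which describes pairs within the same libraries and is no test. Other adjacent pairs were uneven to a like degree. Over the 7769 other adjacent pairs with both genes at a mean of at least 10, the median difference was 3.59-fold in HLM23 and 3.41-fold in the WT, and 29.0% in HLM23 and 29.7% in the WT were within 2-fold. Tandem pairs under 200 bases apart had medians of 3.18-fold in HLM23 and 2.88-fold in the WT, and convergent pairs with such gaps 3.56-fold in HLM23 and 3.51-fold in the WT. No test was run between these classes of pairs, so close divergent pairs are not shown to be more balanced than others. Among the close divergent pairs, the median absolute log2 ratio was 1.77 in HLM23 and 1.63 in the WT for the 90 measured pairs with a gap of 0, and 1.61 in HLM23 and 1.64 in the WT for the 163 measured pairs with gaps of at least 150 bases, and it was lowest in the 173 measured pairs with gaps from 100 to under 150 bases, at 1.35 in HLM23 and 1.45 in the WT.

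The most uneven pairs combined a very abundant gene with a sparsely transcribed neighbour. On chromosome 2, the minus gene at 510073 to 511259 had 67365, 59149 and 42525 normalised reads in HLM23, against 46825, 45249 and 54066 in the WT. Its plus-strand neighbour at 511429 to 516708, 169 bases away, had 334, 227 and 279 in HLM23 and 142, 213 and 161 in the WT. Per kb, the first gene stood 817-fold above the second in HLM23 and 1151-fold above it in the WT, the widest ratio of the 844 pairs by the mean over all libraries. The pair on chromosome 20 at 465944 to 469878, with a gap of 65 bases, leaned the other way, with the plus gene 781-fold above the minus gene per kb in HLM23 and 888-fold in the WT. Its minus gene had 13, 18.5 and 7 normalised reads in HLM23, against 2.82, 4.79 and 15.1 in the WT. Abutting genes could also be far apart in level: on chromosome 14, the genes at 384427 to 391897 had no base between them. The minus gene, with 73229 ± 5720.2 normalised reads in HLM23, against 52621 ± 5318 in the WT (mean ± SD, n = 3), stood 490.4-fold above the plus gene per kb in HLM23 and 647-fold in the WT. The next most uneven pair, on chromosome 4 at 1217319 to 1226816, differed 214-fold in HLM23 and 312-fold in the WT.

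In other pairs both genes were among the abundant ones. Ranked by the level of the lower gene, the first was the pair on chromosome 12 at 743865 to 747560, with a gap of 4 bases. Its minus gene had 75731, 68563 and 98334 normalised reads in HLM23, against 68658, 70327 and 86500.0 in the WT. Its plus gene had 93203, 82062 and 84470.5 in HLM23 and 76306, 85548 and 96200.4 in the WT. Per kb the minus gene was 2.04-fold higher than the plus gene in HLM23 and 1.90-fold in the WT, and the strains overlapped in both genes. The next 3 pairs by this rank, on chromosome 2 at 497262 to 501267, chromosome 3 at 445516 to 450220 and chromosome 5 at 509991 to 512791, differed 2.15-fold, 1.58-fold and 1.41-fold in HLM23, and 2.31-fold, 2.24-fold and 1.60-fold in the WT. The first 2 pairs with a gap of 0 in chromosome order, on chromosome 1 at 495246 to 502527 and at 827833 to 834107, differed 6.09-fold and 4.37-fold in HLM23 and 4.77-fold and 2.09-fold in the WT.

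The direction of imbalance was largely kept between the strains. In 682 of the 844 pairs the same gene was the higher one per kb in all 6 libraries, and the signed log2 ratio of the minus to the plus gene had a Spearman correlation of 0.95 between the strain means, over pairs whose genes share libraries. The median pair shifted by 0.48 on the log2 scale. No such values are given here for other adjacent pairs. The kept direction is therefore not shown to be particular to close divergent pairs. To test shifts directly, the difference of log2(value + 1) between the minus and the plus gene was compared between the strains in limma over all 8613 adjacent pairs with both genes at a mean of at least 10. The balance differed in 224 of 844 close divergent pairs (26.5%), against a background of 29.9% of all adjacent pairs, a share near the background. It moved towards the minus gene in HLM23 in 125 pairs and towards the plus gene in 99. Without HLM23 replicate 1, WT replicate 1 or WT replicate 3 the number was 133, 110 and 128, and without both replicate 2 libraries it was 193. The shares over all adjacent pairs in those fits are not given here. In 24 of the 844 pairs the higher gene per kb was exchanged between the strains in every library, against 3.34% of all adjacent pairs, and in 20 of these the shift passed the threshold. These 24 were chosen by their ratios in the same libraries, so a high share was built in and is no added evidence.

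Genes of close divergent pairs differed between the strains about as often as all tested genes. At an adjusted p under 0.05 in limma over all 9452 tested genes, 494 of the 1766 member genes with a mean of at least 1 differed between the strains (28.0%), against a background of 28.9% of all tested genes. The remaining 12 member genes fell under that mean. Of the 494, 262 were higher in HLM23 (background 14.5% of all tested genes) and 232 lower (background 14.3%). This split moved with the scaling. Setting all library totals equal moved the median of all tested genes to -0.11 on the log2 scale and gave 194 higher and 275 lower members. The median fitted log2 fold change was 0.012 over the members and -0.0022 over all tested genes. The values are relative to all RNA of a culture, in which fewer cells with a transcript and less of it per cell cannot be told apart. Without HLM23 replicate 1, WT replicate 1 or WT replicate 3, 308, 277 and 276 member genes were called. The calls over all tested genes fell likewise, from 2730 to 1741, 1527 and 1541. Without both replicate 2 libraries, 404 member genes and 2250 of all tested genes were called.

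In most strongly changed pairs only one gene passed the threshold. A pair was counted as strongly changed when at least 1 gene passed the threshold with a change of at least 2-fold and a mean of at least 10 normalised reads, and as moving together when the partner passed the threshold in the same direction. There were 194 such genes, 11% of the tested members, against a background of 12.5% of all tested genes. Of these, 124 were higher in HLM23 (background 7.36%) and 70 lower (background 5.11%). This split also moved with the scaling, to 99 higher and 95 lower with equal library totals and 140 higher and 56 lower with the length trend removed. They lay in 175 pairs. In 39 of these both genes moved together, 23 higher and 16 lower in HLM23. With equal library totals 39 pairs again moved together, but 29 of them were shared with the reported 39, and the split turned to 13 higher and 26 lower. Without WT replicate 3 it was 11 higher and 12 lower. In 16 the partner passed the threshold in the opposite direction, and in 120 it did not pass. Over all 2162 strongly changed adjacent pairs these numbers were 228 and 1546, so a single called gene was the usual case there too. The share that moved together was 22.3%, against a background of 17.9% of all strongly changed adjacent pairs, and the difference was not tested. In 15 of the 39 pairs both genes changed at least 2-fold. Whatever the size of change, both genes passed in the same direction in 62 of 877 pairs with both genes tested (7.07%, background 5.73%) and in opposite directions in 23 (2.62%, background 3.66%). The authors' deposited table gives 41 pairs moving together out of 176, of which 38 are among the 39. Without both replicate 2 libraries it was 43 of 237 pairs (18.1%, against 13.4% of all strongly changed adjacent pairs in that fit). In that fit 49 pairs passed in the same direction, whatever the size of change. With only HLM23 replicate 1 dropped, 24 of 143 pairs moved together (16.8%, against 11.7% in the same fit). The fit lacking WT replicate 1 gave 23 of 134 (17.2%, against 10.2%). That lacking WT replicate 3 gave 23 of 147 (15.6%, against 10.2%). These differences were not tested either.

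**Figure D2:**
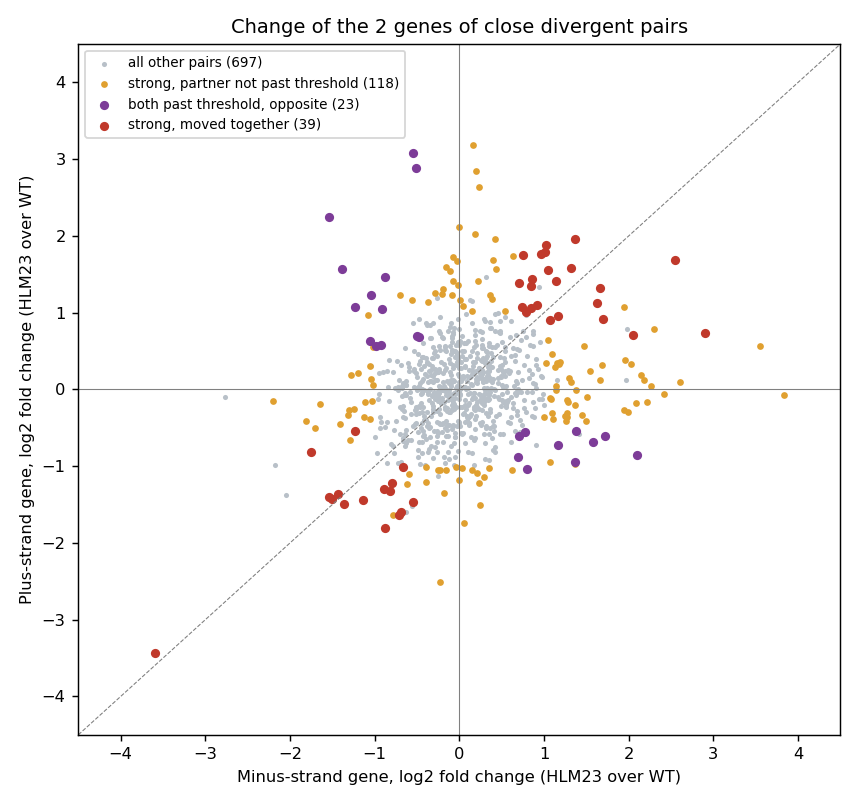
Log2 fold change (HLM23 over WT) of the plus-strand gene against the minus-strand gene of 877 close divergent pairs with both genes tested. Red points are the 39 strongly changed pairs that moved together, purple the 23 pairs past the threshold in opposite directions, orange the 118 strongly changed pairs whose tested partner did not pass, and grey the other 697; many orange points lie near an axis, where the partner's change is near 0.

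The same genes were set against their neighbours on the other side. Of 123 tested partners of strongly higher genes, 32 (26%) were also called higher, whereas of 123 tested genes on the far side of the same strongly higher genes, 13 (10.6%) were. Of 69 tested partners of strongly lower genes, 22 (31.9%) were also called lower, against 11 of 68 (16.2%) on the far side. Partners were counted per strongly changed gene. In the 15 pairs with both genes strongly changed in the same direction, each gene therefore entered as the partner of the other. The 32 and 22 called partners came from 23 higher and 16 lower pairs, so they are not all independent neighbours. Over all adjacent pairs the shares called in the same direction were 19.8% for neighbours of strongly higher genes and 26.2% for neighbours of strongly lower genes. In divergent pairs 200 to under 500 bases apart they were 28.9% and 25.7%, so the shares of the close pairs lay nearer to those of other adjacent pairs than to those of the far side. The median log2 fold change was 0.14 for partners of higher genes and -0.03 for their far neighbours, and -0.27 for partners of lower genes and -0.02 for their far neighbours. The far neighbours lie at any distance, but by the rule only in tandem or convergent orientation to the member gene. In tandem pairs under 200 bases apart the shares were 18.7% for neighbours of higher and 46.2% for neighbours of lower genes. In convergent pairs with such gaps they were 13.2% and 6.06%. None of these shares were tested against each other. The same order, partners above far neighbours, held in both directions in each alternative fit run for it. Without both replicate 2 libraries, 24.1% of the partners and 11.1% of the far neighbours of higher genes and 28.3% of the partners and 15.1% of the far neighbours of lower genes were called. By class of adjacent pair, the share of strongly changed pairs moving together was 24.5% (25 of 102) in overlapping divergent pairs, 21.6% (36 of 167) in divergent pairs 200 to under 500 bases apart, 18.5% (33 of 178) in those at least 500 bases apart, 24.5% (85 of 347) in tandem pairs under 200 bases apart and 10.2% (31 of 305) in convergent pairs under 200 bases apart. Within the close divergent pairs it was 9 of 21 at a gap of 0, 14 of 56 at 1 to 49 bases, 4 of 32 at 50 to 99, 5 of 25 from 100 to under 150 and 7 of 41 at 150 or more. Abutting genes thus held the highest share, on few pairs, and without the pairs of gap 0, 30 of 154 pairs moved together. The transcript ends of abutting genes were not measured, so how reads near the shared end were assigned was not tested.

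**Figure D3:**
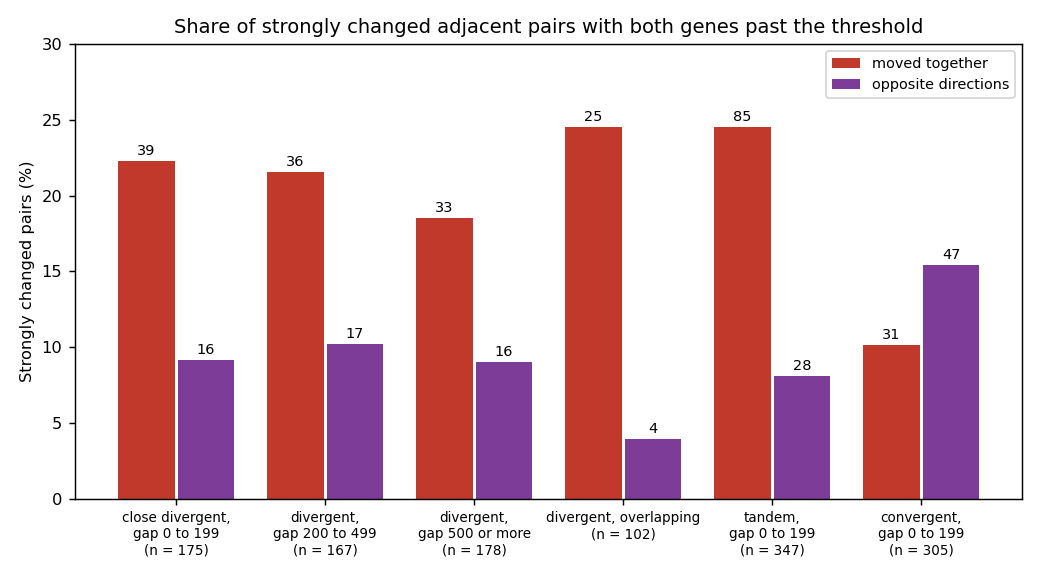
Percentage of strongly changed adjacent pairs in which both genes passed the threshold in the same direction (red) or in opposite directions (purple), by orientation and gap in bases; numbers on the bars count pairs, and n is the number of strongly changed pairs. Close divergent pairs stand at 22.3% moving together, against 24.5% in close tandem and in overlapping divergent pairs and 10.2% in close convergent pairs.

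The 23 pairs that moved together towards higher levels in HLM23 lay on 16 chromosomes, with a smaller change of 0.71 to 1.68 and a larger change of 1.01 to 2.89 on the log2 scale. The leading pair by the smaller of its changes was NO07G03360 and NO07G03370 on chromosome 7, at 924794 to 925940 on the minus strand and 926084 to 927517 on the plus strand, 143 bases apart. NO07G03360 had 1207, 906 and 1183 normalised reads in HLM23, against 115, 349.7 and 157 in the WT, a rise to 5.29 times the mean of the WT (log2 fold change 2.55 ± 0.33 SE, adjusted p = 0.00055 in limma). NO07G03370 had 567, 446 and 684 normalised reads in HLM23, against 95.7, 277 and 195 in the WT, or 2.99 times the mean of the WT (log2 fold change 1.68 ± 0.33 SE, adjusted p = 0.0036 in limma). All HLM23 libraries lay above all WT libraries in both genes, and WT replicate 2 was the highest WT library in both. The minus gene rose more than its partner, with a change in balance of 0.87 ± 0.28 SE (limma adjusted p = 0.039), a call that was lost without HLM23 replicate 1, HLM23 replicate 2, WT replicate 1, WT replicate 3 or both replicate 2 libraries (adjusted p of 0.066 to 0.13).

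In the other leading pairs that rose, the shift in balance did not pass the threshold. On chromosome 11, the abutting genes at 622388 to 625820 differed in level and both rose. The minus gene there had 2319, 1730.4 and 3214 normalised reads in HLM23, against 461, 1084 and 821 in the WT (log2 fold change 1.66 ± 0.29 SE, adjusted p = 0.002 in limma). Its plus-strand partner had 12864, 9376 and 11931 in HLM23 and 3438, 5904 and 4518 in the WT (log2 fold change 1.32 ± 0.20 SE, adjusted p = 0.001 in limma). HLM23 lay above the WT throughout in both genes, and the plus gene was 2.5-fold above the minus gene per kb in HLM23 and 3.11-fold in the WT (balance change 0.33, limma adjusted p = 0.3). A gap of 160 bases separated the pair on chromosome 5 at 1262687 to 1265963, in which the minus gene had 1373, 1078 and 1242 normalised reads in HLM23, against 366, 618 and 522 in the WT. The plus gene of that pair had 4535, 3538 and 6272 in HLM23 and 992, 1771 and 2108 in the WT. Both rose without overlap between the strains (log2 fold changes 1.32 and 1.59, limma adjusted p = 0.0011 and 0.0017).

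The pair on chromosome 27 at 208422 to 214630 was close to even per kb in both strains. Its minus gene had 3690.2, 2643 and 2755 normalised reads in HLM23, against 1211, 1047 and 726 in the WT. Its plus gene had 605, 496 and 629 in HLM23 and 240.3, 268 and 282 in the WT. Both stood clear of the WT range (log2 fold changes 1.62 and 1.12, limma adjusted p = 0.00055 and 0.0016). The ratio of the higher to the lower gene per kb was 1.17 in HLM23 and 1.19 in the WT. A wide imbalance in both strains marked the second pair on chromosome 5, at 1212772 to 1216698 with a gap of 6 bases, where the plus gene averaged 14420.0 ± 2111 normalised reads in HLM23, against 4908 ± 862 in the WT (mean ± SD, n = 3). Its minus gene averaged 370.0 ± 78.2 in HLM23 and 181 ± 46.1 in the WT (mean ± SD, n = 3). The plus gene was 18.9-fold higher per kb in HLM23 and 13.2-fold in the WT, and both rose (log2 fold changes 1.56 and 1.05, limma adjusted p = 0.00037 and 0.01). The pairs on chromosome 20 at 374316 to 381226 and on chromosome 2 at 758659 to 761586 also rose in both genes without overlap, by log2 fold changes of 1.14 and 1.41 in the first and 1.02 and 1.88 in the second. In the remaining pair of the leading 8, on chromosome 10 at 1238447 to 1243699, the plus gene rose by 1.96 in log2 terms (limma adjusted p = 0.0041) and the minus gene by 1.36 (limma adjusted p = 0.013). The lowest HLM23 value of the minus gene, 1733, however lay below the highest WT value, 1739.9. The call of that minus gene was lost without WT replicate 3 (adjusted p = 0.052).

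**Figure D4:**
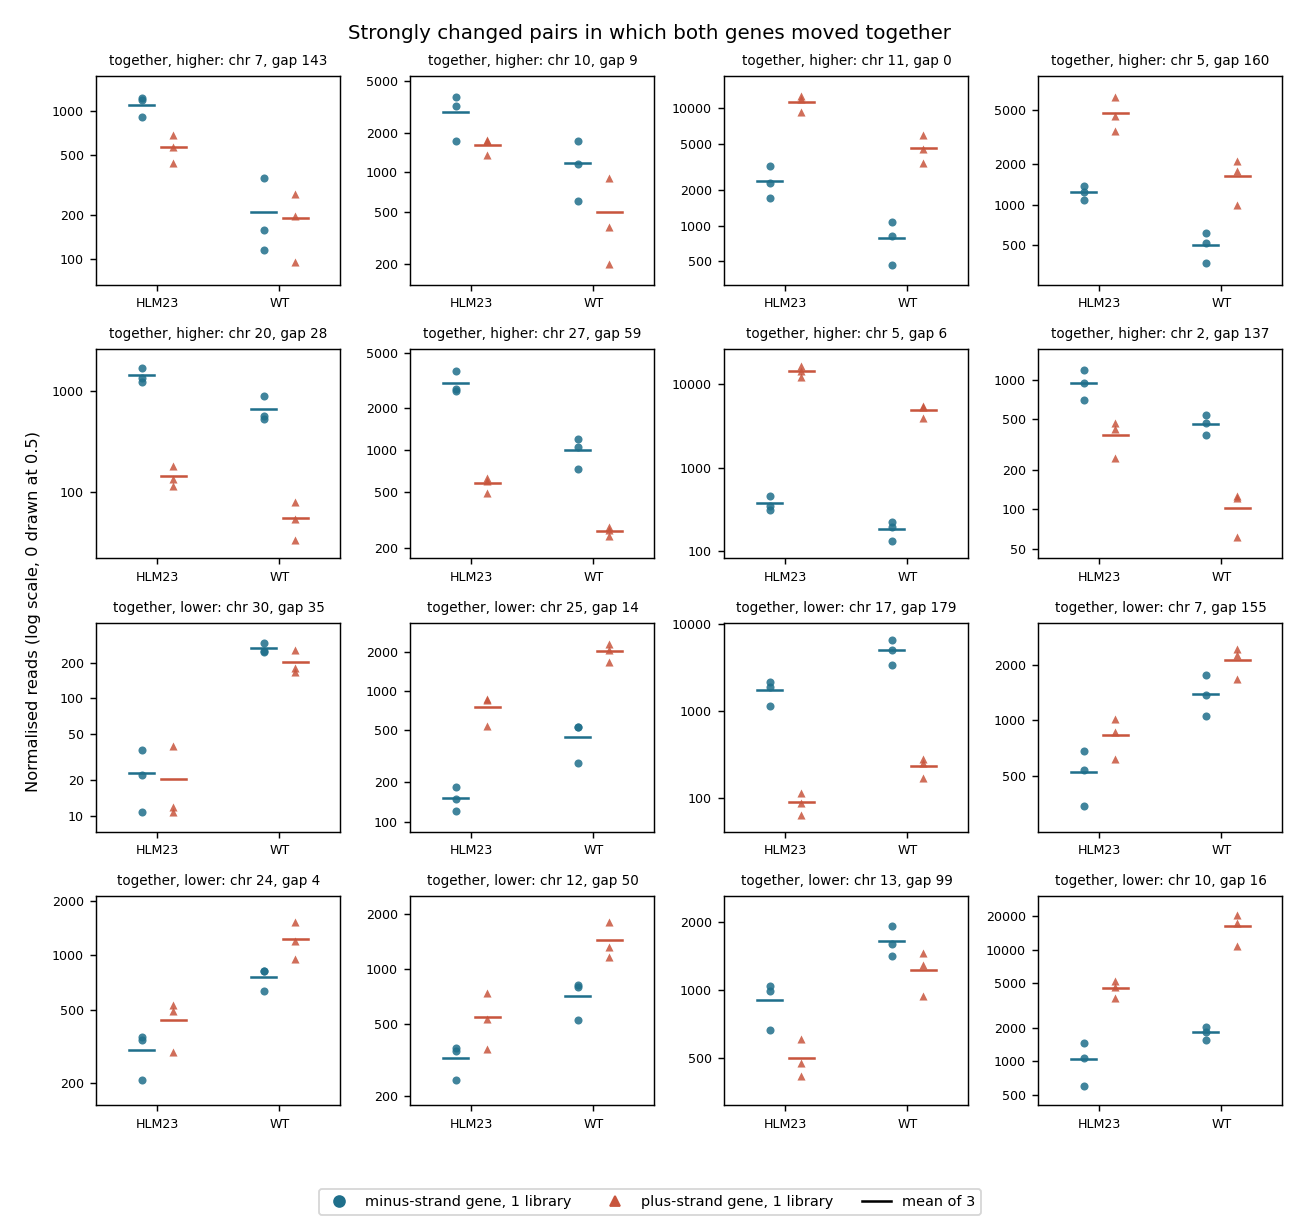
Normalised reads (log axis) of the minus-strand gene (circles) and the plus-strand gene (triangles) in each library of HLM23 and the WT, for the leading 8 higher and leading 8 lower pairs that moved together; bars are means of 3 libraries and each panel names the chromosome and the gap in bases. In 15 of the 16 panels the HLM23 points of both genes stand apart from the WT points; the exception is the chromosome 10 pair with a gap of 9 bases.

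The 16 pairs that moved together towards lower levels lay on 12 chromosomes, with a smaller change of 0.54 to 3.43 and a larger change of 1.01 to 3.60 on the log2 scale, in size. NO30G00910 and NO30G00920 on chromosome 30, at 337274 to 339430 on the minus and 339466 to 342510 on the plus strand and 35 bases apart, fell furthest. NO30G00910 had 10.9, 22.4 and 36.0 normalised reads in HLM23, against 252, 295 and 244 in the WT (log2 fold change -3.60 ± 0.38 SE, adjusted p = 0.00035 in limma). NO30G00920 had 10.9, 39.0 and 12.0 normalised reads in HLM23, against 179, 167 and 255 in the WT (log2 fold change -3.43 ± 0.44 SE, adjusted p = 0.00055 in limma). The libraries of the strains stood apart in both genes of the pair, but the shift in balance did not pass the threshold (change -0.17 ± 0.60 SE, adjusted p = 0.85 in limma).

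In the next 4 pairs both genes fell to between 0.34 and 0.40 times the WT mean. On chromosome 25 at 294180 to 303930, 14 bases apart, the minus gene had 122, 150.1 and 186 normalised reads in HLM23, against 528, 282 and 529 in the WT (log2 fold change -1.51 ± 0.28 SE, adjusted p = 0.0026 in limma). Its plus-strand partner had 545, 862 and 874 in HLM23 and 2062, 1664 and 2308 in the WT (log2 fold change -1.42 ± 0.21 SE, adjusted p = 0.00083 in limma). The libraries of the strains did not overlap in either gene. The pair on chromosome 17 at 179771 to 190348 had long and short members. The minus gene, of 7735 bases, had 1147, 1896 and 2150.3 normalised reads in HLM23, against 6648, 3400.3 and 5116 in the WT. The plus gene there, of 2241 bases, had 64.1, 114 and 87.0 in HLM23 and 281, 169.6 and 252 in the WT, and both fell without overlap (log2 fold changes -1.54 and -1.40, limma adjusted p = 0.0017 and 0.0046).

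Close to even in level per kb was the pair on chromosome 7 at 594016 to 601772, 155 bases apart. Its minus gene had 346, 685 and 544 normalised reads in HLM23, against 1754, 1056 and 1375 in the WT. The plus gene had 617, 1014 and 862 in HLM23 and 2266, 1672 and 2445 in the WT. Per kb the higher gene stood 1.02-fold above the lower in HLM23 and 1.01-fold in the WT. Both genes fell without overlap (log2 fold changes -1.43 and -1.37, limma adjusted p = 0.002 and 0.001; balance change -0.07 ± 0.22 SE). Near the start of chromosome 24, at 9946 to 17624, the genes lay 4 bases apart and averaged 302 ± 81.3 and 441 ± 127 normalised reads in HLM23, against 765 ± 107 and 1231 ± 289 in the WT (minus and plus gene, SD, n = 3). They fell by 1.37 and 1.5 in log2 terms (limma adjusted p = 0.0016 and 0.0014). The pairs on chromosome 12 at 325152 to 333121 and chromosome 13 at 300219 to 310224 fell by 1.14 and 1.44, and by 0.89 and 1.29 (minus and plus gene). In the last of the leading 8, on chromosome 10 at 79742 to 86364, the plus gene fell by 1.81 (limma adjusted p = 0.0005) and the minus gene by 0.88 (limma adjusted p = 0.028). The call of that minus gene was lost without HLM23 replicate 1 (log2 fold change -0.53, adjusted p = 0.087), WT replicate 1 (adjusted p = 0.077) or WT replicate 3 (adjusted p = 0.12).

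The median listed length was 1715 bases over the genes of the 23 higher pairs and 2732 bases over those of the 16 lower pairs, against 1908 bases in the 474 pairs with neither gene called. The Spearman correlation of length and log2 fold change was -0.11 over the 1766 tested member genes and -0.074 over all tested genes, as a description. With a trend on length removed from each library, 39 of 177 strongly changed pairs moved together, 36 of them shared with the 39 reported. The lower pairs were also the more even ones, with a median absolute log2 ratio of 0.77 in HLM23 and 0.80 in the WT, against 1.53 in HLM23 and 1.90 in the WT for the higher pairs. These medians describe groups chosen by their change and were not tested. In 36 of the 39 pairs the strains did not overlap in either gene. The pairs were chosen by calls in the same libraries, so this is no added evidence. Counted by gene over all tested genes, called or not, 46.9% did not overlap. In 8 of the 39 the balance between the genes shifted past the threshold, against a background of 29.9% of all adjacent pairs. These pairs were chosen for changes in the same direction, so this share is no independent result.

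In 23 pairs the genes passed the threshold in opposite directions. The shift in balance passed in all 23 as well, which follows largely from that choice, as balance is the difference between the genes. The widest shift was that of the pair on chromosome 4 at 243915 to 251023, 84 bases apart, in which the leading gene was exchanged. Its minus gene had 231, 378 and 377 normalised reads in HLM23, against 1169, 702 and 984 in the WT (log2 fold change -1.54 ± 0.25 SE, adjusted p = 0.0012 in limma). The plus gene had 657, 448 and 596 in HLM23, against 73.2, 157 and 140.2 in the WT (log2 fold change 2.25 ± 0.29 SE, adjusted p = 0.00055 in limma). Per kb, the plus gene was 2.99-fold above the minus gene in HLM23, whereas in the WT the minus gene was 4.44-fold above the plus gene (balance change -3.78 ± 0.46 SE, adjusted p = 0.00086 in limma). The leading gene was also exchanged on chromosome 17 at 131372 to 137375, over a gap of 3 bases. There the minus gene had 439, 332 and 235 normalised reads in HLM23, against 61.9, 96.8 and 71.6 in the WT. The plus gene had 109, 132 and 110.0 in HLM23 and 241, 184 and 215 in the WT. The minus gene rose by 2.09 (limma adjusted p = 0.00067) and the plus gene fell by 0.86 (limma adjusted p = 0.017). The fall was not called without HLM23 replicate 1, WT replicate 1 or WT replicate 3 (adjusted p of 0.059 to 0.084). The shift in balance, 2.95 ± 0.40 SE, was called in each fit run (limma adjusted p = 0.001 as reported).

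In 3 other opposite pairs the levels per kb were nearly even in HLM23 and uneven in the WT. On chromosome 16 at 232483 to 237338, the minus gene had 371, 650.2 and 384 normalised reads in HLM23, against 1514, 864 and 1275 in the WT. The plus gene, 108 bases away, had 470.2, 419 and 474 in HLM23 and 138, 233 and 109.9 in the WT. The ratio of the higher to the lower gene per kb was 1.11 in HLM23 and 6.61 in the WT (log2 fold changes -1.39 and 1.57, limma adjusted p = 0.0025 and 0.0017). A like pattern held on chromosome 7 at 1163847 to 1175838, with a ratio of 1.16 in HLM23 and 4.28 in the WT and log2 fold changes of -0.88 for the minus and 1.47 for the plus gene (limma adjusted p = 0.012 and 0.0018, the first lost without WT replicate 1 at 0.057). The third such pair, on chromosome 20 at 89197 to 95293, had a ratio of 1.02 in HLM23 and 17.2 in the WT. It and the remaining pair of the leading 6, on chromosome 9 at 2494 to 11434, combined a gene that fell with a sparse gene that rose. In the WT these sparse plus genes averaged 2.25 (chromosome 20) and 5.90 (chromosome 9) normalised reads, against 27.2 and 34.3 in HLM23. They met the mean of 10 only through HLM23. The WT ratios and the shifts in balance of these pairs therefore rest on WT values near the floor. The plus gene on chromosome 20 had 34.8, 8.77 and 38 normalised reads in HLM23, against 0.939, 4.79 and 1.01 in the WT (log2 fold change 3.08, limma adjusted p = 0.0074). With a pseudocount of 10 this rise was 1.5, with 0.1 it was 3.68, and without both replicate 2 libraries it was 4.24. The plus gene on chromosome 9 had 31.5, 24.4 and 47.0 in HLM23, against 0, 8.62 and 9.08 in the WT (log2 fold change 2.89, limma adjusted p = 0.018). Their minus genes fell by 0.55 and 0.51 on the log2 scale (limma adjusted p = 0.038 and 0.042). Both falls were lost in 5 of 6 fits without 1 library and with the length trend removed (adjusted p of 0.053 to 0.15). The fall on chromosome 20 was also lost without both replicate 2 libraries (adjusted p = 0.092), and that on chromosome 9 with the replicate block (adjusted p = 0.061). The rise on chromosome 9 was lost without HLM23 replicate 3 (0.068) and with a pseudocount of 0.1 (0.0501), where it was 4.05. It was 1.51 with a pseudocount of 10 and 1.79 on the log2 scale without WT replicate 1. Without HLM23 replicate 1, WT replicate 1 or WT replicate 3 the number of opposite pairs was 8, 6 and 9, and without both replicate 2 libraries it was 15.

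In the 120 strongly changed pairs whose partner did not pass the threshold, the partner was tested in 118 and had the same sign of change in 63 and the opposite sign in 55. The shift in balance, which compares the change of a gene with that of its neighbour, could be tested in 114 of them and passed in 98. The background was 29.9% of all adjacent pairs. These pairs were chosen by their change in the same libraries, so a high share was built in and is no independent support. The widest such shift was on chromosome 2 at 552468 to 557584, over a gap of 40 bases. Its minus gene had 9414, 6081 and 10620.4 normalised reads in HLM23, against 264, 1416 and 565 in the WT, 11.6 times the mean of the WT (log2 fold change 3.83 ± 0.45 SE, adjusted p = 0.0004 in limma). The abundant plus gene had 7681, 7536 and 8689 in HLM23, against 8513, 8315 and 8357 in the WT (log2 fold change -0.08 ± 0.14 SE, adjusted p = 0.71 in limma). The balance changed by 3.91 ± 0.48 SE in log2 terms (limma adjusted p = 0.00086), and the plus gene stood 3.95-fold above the minus gene per kb in HLM23 and 48.4-fold in the WT.

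All 6 leading pairs of this kind had one gene that rose. On chromosome 25 at 307278 to 310984, 197 bases apart, the plus gene had 404, 265 and 428 normalised reads in HLM23, against 33.8, 83.4 and 41.3 in the WT. The minus gene had 401, 476 and 364 in HLM23 and 369.8, 389.9 and 319.7 in the WT. The libraries stood apart in the plus gene and overlapped in the minus gene (log2 fold changes 2.85 and 0.20, limma adjusted p = 0.00042 and 0.48). On chromosome 15 at 843746 to 849391, 8 bases apart, the minus gene had 252, 184 and 199.9 normalised reads in HLM23, against 14.1, 66.1 and 60.5 in the WT. Its plus-strand neighbour had 2815, 2816 and 2902 in HLM23 and 2918, 2687 and 3295 in the WT. The minus gene rose by 2.41 in log2 terms (limma adjusted p = 0.0037), and the plus gene, at -0.06 ± 0.14 SE (limma adjusted p = 0.79), overlapped between the strains. The pairs on chromosome 5 at 718112 to 721034, chromosome 29 at 314708 to 319908 and chromosome 1 at 1363202 to 1368464 had log2 fold changes of 3.18, 3.55 and 2.60 in the gene that rose, against 0.16, 0.57 and 0.10 in the partner, which was not called. In the chromosome 29 pair, the partner passed the threshold without HLM23 replicate 3 (log2 fold change 0.76, adjusted p = 0.048).

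**Figure D5:**
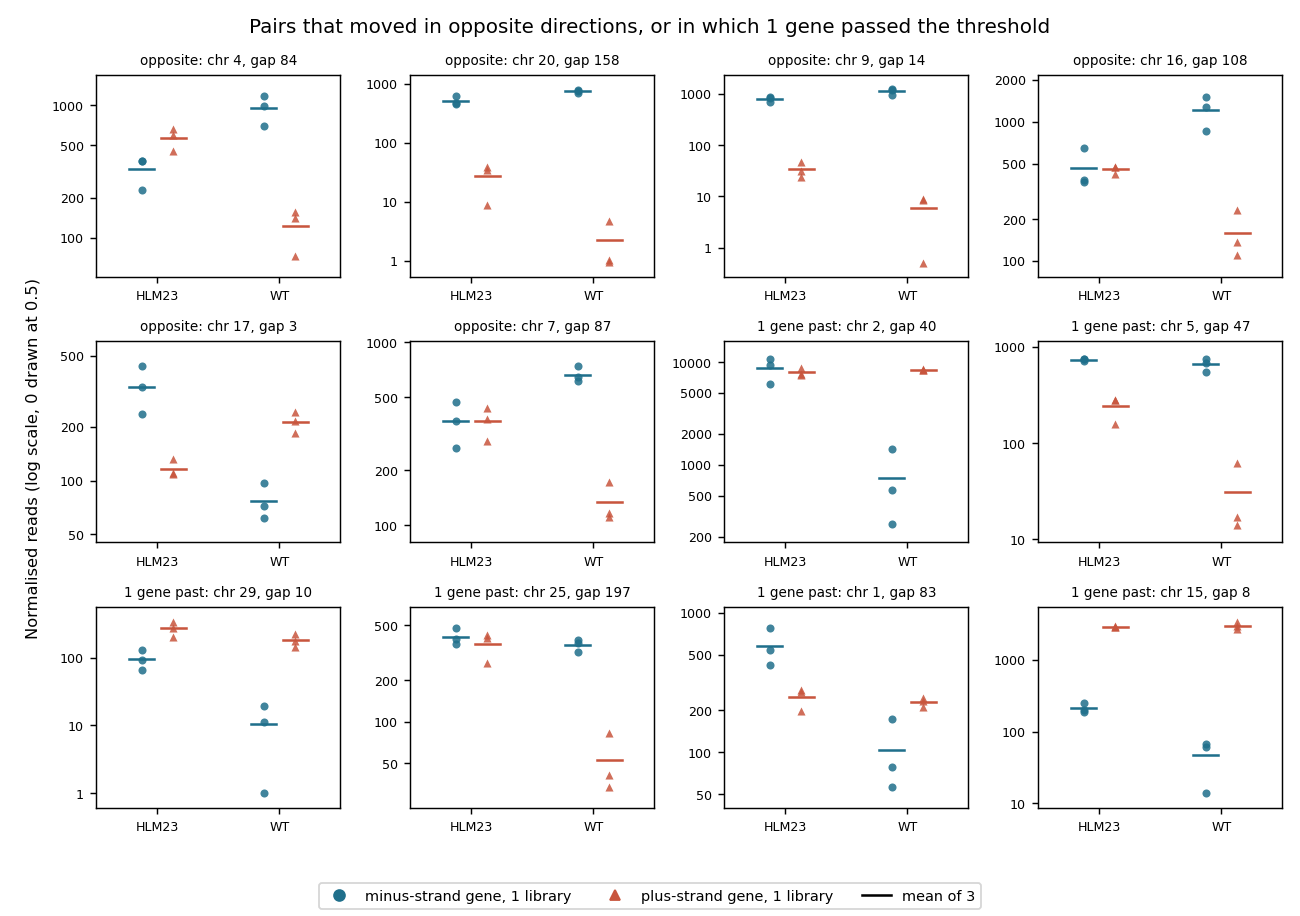
Normalised reads (log axis) of the minus-strand gene (circles) and the plus-strand gene (triangles) in each library of HLM23 and the WT, for the 6 leading pairs with opposite changes and the 6 leading pairs in which 1 gene passed the threshold and its partner did not; bars are means of 3 libraries and a value of 0 is drawn at 0.5, as the axis says. In the chromosome 4 pair the order of the genes is exchanged between the strains, and in the chromosome 2 pair the plus gene lies between 7536 and 8689 reads in all 6 libraries.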

How the data were processed

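Messenger RNA of 3 HLM23 and 3 WT libraries was sequenced, and 1 table of 9552 genes was used. Per the submitters' processing notes the tools were fastp, HISAT2, featureCounts and DESeq2, without versions; no source used here names the genome build, annotation, strand setting or parameters. The authors deposited a signal per gene and library, called normalised reads here, which is gene reads divided by a size factor per library, as read from the values: 100% are whole multiples of a step per library (tolerance 0.01 reads). The size factors of 2 libraries were within 1% of 1, and a count model was not run. The authors also deposited FPKM, which was not tested, and log2 fold changes with p-values from their own comparison, used only as an alternative. Coordinates and gene lengths are as deposited.

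Log2(normalised reads + 1) was fitted in limma 3.58.1 (R 4.3.3) with an intensity trend over the 9452 genes with a mean of at least 1, and p-values were adjusted by Benjamini-Hochberg over all of them, with a threshold of 0.05. Fold changes are on the log2(value + 1) scale, which understates changes of low genes. Shifts in balance were fitted likewise over adjacent pairs with both means at least 10. Levels between genes were compared per kb of listed gene length. The fits were tested on simulated data. Depth was 15331673 to 18711316 implied reads per library. The pairs, lists and rules were chosen with earlier results of these data known. Named pairs were the up to 8 higher and 8 lower pairs that moved together with the largest smaller change, 6 opposite and 6 with 1 gene past the threshold by shift in balance, the 4 most uneven, the 4 most abundant by their lower gene, and 2 of smallest gap. Alternatives were other pseudocounts, filters, scaling, limma voom, thresholds, gaps, a replicate block and leaving out libraries. No sequences were printed, and no reference genome was used here.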

Additional observations from a re-analysis of the deposited data

How the results depend on the processing

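Depth limits sparse genes, and 3 libraries per strain limit all tests. No result named in the text changed direction while called, under any alternative run. Of the values of named genes and pairs under alternatives, 1468 kept their side of the threshold, 44 lost it and 8 gained it. Leaving out 1 library gave 276 to 498 called member genes, 27 to 64 pairs in the same direction, 6 to 22 opposite, 23 to 47 strongly changed pairs moving together, 110 to 220 shifts in balance, a median imbalance of 1.60 to 1.64 and a median log2 fold change of 0.018 to 0.030. At an adjusted p under 0.01 these counts were 238 genes, 23, 5, 20 (of 147) and 97. With gaps of 0 to 99 bases they were 309 genes, 15 opposite pairs and 137 shifts, with an imbalance of 1.70, and fewer pairs entered. The imbalance was 1.5 with means of at least 50 in both genes. The median log2 fold change was -0.098 with equal library totals, 0.076 with the length trend removed and 0.031 without both replicate 2 libraries, where 15 pairs were opposite. Removing the length trend, dropping abutting pairs and leaving out both replicate 2 libraries were alternatives added after seeing the data. Same-numbered libraries had correlations of deviations of -0.069, -0.11 and 0.15, and differently numbered ones lay between -0.12 and 0.19. With ranges so alike, these values do not settle whether the numbers pair the libraries. The fit with the replicate block gave 38 of 175 pairs moving together (37 shared), 19 opposite and 211 shifts in balance. For the changes in other settings the cause was not tested.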
